A study of Mus musculus with 6 samples.

Results

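The DNA replication and S-phase genes examined here are 52 mouse genes, out of 54532 gene identifiers measured. They were taken by symbol from a list that runs from origin licensing to nucleotide supply, chosen with earlier results of these data known. All 52 were found. The cells were immortalised bone marrow-derived macrophages (BMDMs), mouse marrow macrophages that keep dividing in culture, and all 6 RNA sequencing libraries came from cells given interleukin-4 at 10 ng/ml for 24 h. In 3 libraries a short hairpin RNA targeted PGAM5, a mitochondrial phosphatase, and in 3 it targeted DRP1, the GTPase of mitochondrial fission encoded by Dnm1l. The labels do not say whether the 3 libraries of a group came from separate cultures or hairpins, and libraries from cells without a hairpin or without interleukin-4 were not analysed here, so every difference is PGAM5 knockdown relative to DRP1 knockdown. The study asked about PGAM5 in the anti-inflammatory response of macrophages, and the comparison asks how the replication genes differ between the 2 knockdowns.

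Before a cell copies its DNA, the origin recognition complex, Cdc6 and Cdt1 load the MCM hexamer onto origins of replication. Cdc45 and the GINS complex then join the hexamer to make the active helicase, the PCNA clamp and its loader RFC hold the polymerases on the template, and ligase joins the fragments of the lagging strand. Transcription of many of these genes rises as cells enter S phase and is controlled by the E2F transcription factors.

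Both targeted genes matched the labels. Pgam5 was at 4.91 ± 0.31 FPKM in PGAM5 knockdown and 17.2 ± 0.14 in DRP1 knockdown (SD, n = 3 each), a log2 difference of -1.62 (limma, adjusted p = 4.5e-06), and Dnm1l was at 17.9 ± 0.75 and 7.57 ± 0.55 FPKM, a log2 difference of 1.14 (limma, adjusted p = 2.9e-05). FPKM is fragments per kilobase of exon, scaled to the library total. That total was not given and was recovered from the FPKM values, as 16111272 to 21933556 reads per library. The tests were run on log2(FPKM + 1), which understates the change of low genes. Of 10 macrophage markers 9 were at 1 FPKM or more and Mertk was near 0, and the summed level of the 10 was lower in PGAM5 knockdown (4056 to 4238 FPKM) than in DRP1 knockdown (5179 to 5211 FPKM), with 5 markers passing the test as lower. The part of this difference in the results that follow was not tested. None of 37 markers of 7 other cell types reached 1 FPKM, the highest summed level of any type was 0.724 FPKM, and 18 of them, Cd3e, Ly6g and Epcam included, were at 0 in all 6 libraries. In bulk RNA, fewer cells in S phase and less RNA per cell cannot be told apart.

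Promoters of 5 members are printed because they show the sequence words by which E2F targets are usually recognised, in 3 MCM genes that were higher in PGAM5 knockdown and in 2 members, Gins3 and Cdc6, that did not pass the test. Each is 300 bases of the gene's own strand, from 250 bases before the start of transcription to 50 after it, from RefSeq on build GRCm38.p6. Capitals mark the E2F words TTTCCCGC, TTTCGCGC, TTTGCCGC and TTTGGCGC and the CCAAT box word CCAAT, each searched on both strands, so that a word on the other strand reads GCGGGAAA, GCGCGAAA, GCGGCAAA, GCGCCAAA or ATTGG. E2F words overlap each other in Mcm5 and Mcm6, and no E2F word overlaps a CCAAT word.
Mcm3 (chr1:20820263-20820562, minus strand): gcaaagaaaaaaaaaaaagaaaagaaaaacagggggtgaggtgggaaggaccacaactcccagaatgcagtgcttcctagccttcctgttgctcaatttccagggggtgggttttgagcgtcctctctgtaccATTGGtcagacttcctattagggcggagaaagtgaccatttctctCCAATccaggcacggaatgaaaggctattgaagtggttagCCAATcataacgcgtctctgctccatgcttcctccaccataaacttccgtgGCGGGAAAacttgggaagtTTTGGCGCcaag
Mcm5 (chr8:75109259-75109558, plus strand): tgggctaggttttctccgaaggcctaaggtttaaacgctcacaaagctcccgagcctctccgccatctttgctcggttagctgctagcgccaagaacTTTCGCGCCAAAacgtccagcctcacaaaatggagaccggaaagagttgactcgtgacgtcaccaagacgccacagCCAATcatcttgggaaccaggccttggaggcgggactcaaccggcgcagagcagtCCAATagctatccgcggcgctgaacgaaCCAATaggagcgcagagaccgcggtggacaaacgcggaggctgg
Mcm6 (chr1:128359656-128359955, minus strand): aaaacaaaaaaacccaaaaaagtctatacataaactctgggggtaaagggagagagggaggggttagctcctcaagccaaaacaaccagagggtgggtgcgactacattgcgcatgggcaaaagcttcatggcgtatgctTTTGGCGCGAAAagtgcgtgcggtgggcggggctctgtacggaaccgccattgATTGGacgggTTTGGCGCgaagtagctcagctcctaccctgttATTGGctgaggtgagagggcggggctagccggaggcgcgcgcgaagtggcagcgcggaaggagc
Gins3 (chr8:95633309-95633608, plus strand): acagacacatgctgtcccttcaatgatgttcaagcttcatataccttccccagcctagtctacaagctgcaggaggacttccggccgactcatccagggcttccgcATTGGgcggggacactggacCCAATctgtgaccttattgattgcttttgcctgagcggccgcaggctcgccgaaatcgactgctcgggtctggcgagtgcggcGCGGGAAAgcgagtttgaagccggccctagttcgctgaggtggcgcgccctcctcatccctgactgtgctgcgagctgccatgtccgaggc
Cdc6 (chr11:98907901-98908200, plus strand): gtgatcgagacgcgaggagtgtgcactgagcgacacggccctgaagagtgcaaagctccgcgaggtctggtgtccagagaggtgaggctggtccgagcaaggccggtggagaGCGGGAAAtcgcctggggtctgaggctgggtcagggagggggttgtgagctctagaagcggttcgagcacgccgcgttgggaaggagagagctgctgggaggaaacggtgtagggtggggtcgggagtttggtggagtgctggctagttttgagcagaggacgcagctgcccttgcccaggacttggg

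The Mcm3 window held 2 E2F words, both after the start, with first bases at 20 and 39, and 3 CCAAT words. In Mcm5 both E2F words shared bases, beginning 153 and 149 bases before the start, and 3 CCAAT words followed. Mcm6 held 3 E2F words, beginning 110, 106 and 47 bases before the start, and 2 CCAAT words. A single E2F word lay 41 bases before the start of Gins3, with 2 CCAAT words, and 138 bases before the start of Cdc6, with none. These positions are counted from the RefSeq start. In the annotation used for gene symbols, Cdc6 begins at chr11:98907801, so its whole window lies within the gene there. Gins3 begins at chr8:95633453 in that annotation, so its E2F word also lies within the gene there. RefSeq windows were given for 44 of the 52 members, some with several, and a gene was counted if any of its windows held the word. An E2F word was held by 17 of these 44 (38.6%). The share was 2.60% of all 27025 genes with a window and 5.15% of the 7785 tested genes with one. A CCAAT word was held by 59.1% of the members with a window and 41.1% of all genes with one. Among the members, an E2F word was in 8 of 16 that rose and 9 of 27 that did not pass. A CCAAT word was in 12 of the 16 and 14 of the 27, so the split was not particular to E2F words. Such a match describes the letters and does not show that a factor binds there.

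The replication genes that passed the test were all higher in PGAM5 knockdown: 20 rose and 0 fell. Of the 52, 51 were at a mean of 1 FPKM or more and were tested, all but Fen1. By limma's moderated test at an adjusted p of 0.05 over 10634 genes, 20 of the 51 rose, beside 13.8% of all tested genes, and 31 did not pass. None of the 51 fell, beside 11.7% of all tested genes. Because this and the later lists were chosen with earlier results of these data known, such shares describe the lists and test nothing. The count below was also 0 at an unadjusted p under 0.05, where 17.5% of all genes were lower, and 0 with voom on recovered reads, which called 22 members higher, beside 15.9% of all genes. The median log2 difference was 0.15 (quartiles 0.07 to 0.26) over the 51 and 0.01 over all tested genes, and 46 of the 51 differences were above 0 (90.2%, beside 52.3% of all tested genes). Levels in the groups did not overlap for 29 of the 51, all higher in PGAM5 knockdown, beside 23.0% of all tested genes. The members' median deviation from each gene's mean was 0.06, 0.08 and 0.10 on the log2 scale in PGAM5 knockdown libraries 1 to 3, and -0.08, -0.09 and -0.06 in the DRP1 knockdown libraries. All 3 libraries of each group thus lay on the same side, while the median of all tested genes stayed between -0.0039 and 0.013.

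**Figure D1:**
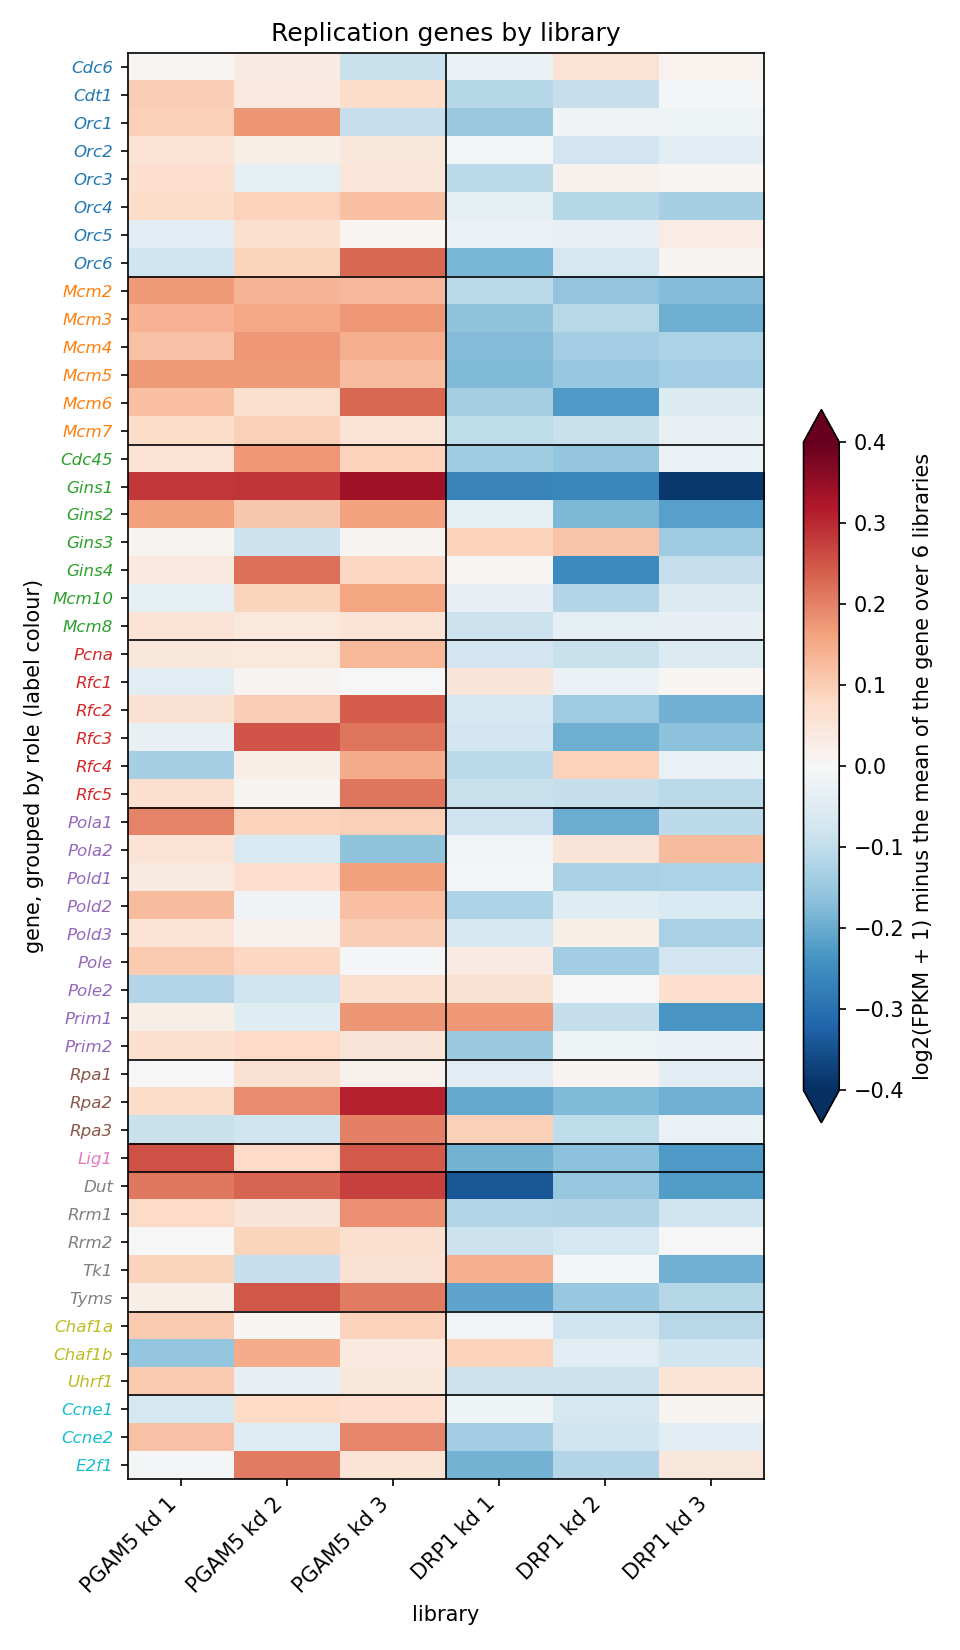
Each gene's level in each of the 6 libraries as its deviation, on the log2(FPKM + 1) scale, from the gene's mean over the libraries, for the 51 tested members ordered by role. Most rows are higher in the 3 PGAM5 knockdown columns, the 6 MCM genes without exception, while rows such as Rpa3 and Gins3 vary within the groups.

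**Figure D2:**
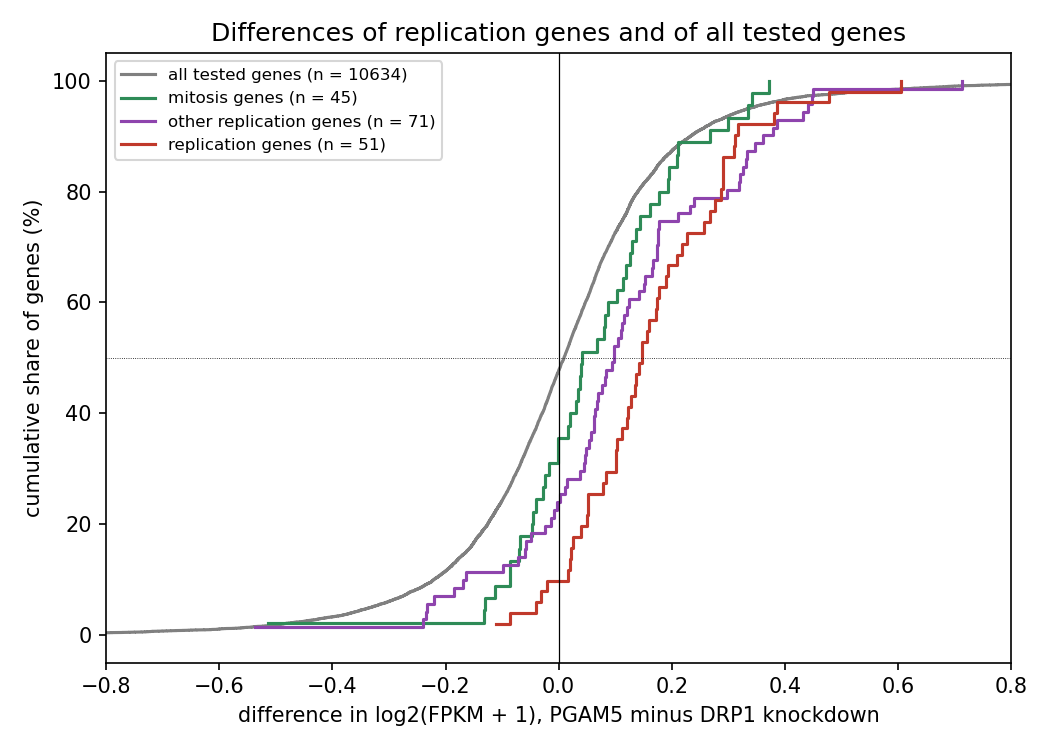
Cumulative share of genes (%) by log2 difference (PGAM5 knockdown minus DRP1 knockdown), 1 line each for the 10634 tested genes, the 51 tested members, 71 other replication genes and 45 mitosis genes. The members' line lies to the right, crossing its median at 0.15, beside 0.01 for all tested genes.

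The number that rose moved most with the DRP1 knockdown libraries. Without DRP1 knockdown library 1, 2 or 3 the count was 12, 8 and 13, beside 9.39%, 9.13% and 9.38% of all tested genes, and without PGAM5 knockdown library 1, 2 or 3 it was 16, 15 and 18, beside 12.4%, 10.6% and 13.7%. With no filter on low values it was 13, beside 5.48% of 21552 genes, and with the replicate number as a block 14, beside 10.9%. None fell in any of these fits. PGAM5 knockdown library 3 stood somewhat apart from its group (chi-square per gene 8.01 and 5.58 against the other 2 libraries, with 2.64 to 3.24 between other libraries of 1 group), and without it 18 members rose.

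The 6 subunits of the MCM hexamer, the ring that unwinds the DNA, all rose, beside 13.8% of all tested genes. Log2 differences were from 0.28 to 0.31 for 5 of the subunits and 0.15 for Mcm7. Mcm3 (ENSMUSG00000041859; chr1:20802968-20820312, minus strand, mm10), the most abundant, was at 43.5, 44.1 and 44.7 FPKM in PGAM5 knockdown and 35.2, 36.5 and 34.4 in DRP1 knockdown, 1.25-fold higher (log2 difference 0.31, SE 0.033, limma adjusted p = 0.00067). Mcm2 was at 27.8, 27.1 and 27.0 FPKM beside 22.8, 21.9 and 21.7, 1.23-fold higher (log2 difference 0.29, SE 0.033, limma adjusted p = 0.00099). The groups did not overlap for either gene. Mcm5 stood at 21.9, 22.0 and 21.2 FPKM beside 17.0, 17.4 and 17.5 (limma adjusted p = 0.00071), and Mcm4 at 19.1, 19.9 and 19.5 beside 15.4, 15.9 and 16.0 (limma adjusted p = 0.0011). Mcm6 was the most scattered of the 6, at 10.2, 9.78 and 11.1 FPKM beside 8.39, 7.82 and 8.92 (log2 difference 0.28, limma adjusted p = 0.016). Its groups still did not overlap.

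Mcm7 differed least, at 12.0, 12.2 and 11.8 FPKM beside 10.5, 10.6 and 11.1, 1.12-fold (log2 difference 0.15, limma adjusted p = 0.027). Of its exonic bases 12.6% are shared with neighbouring genes, and 81.2% of its longest transcript is matched by Ap4m1 and Gm5487 together. Ap4m1, which also overlaps it on the opposite strand, was at 1.83 ± 0.086 and 1.57 ± 0.080 FPKM (SD, n = 3 each), higher in PGAM5 knockdown without overlap though not past the test (limma adjusted p = 0.17), and Gm5487 was at 0 to 0.026 FPKM. The ratio of Mcm3 to Mcm7 was 3.68 ± 0.091 in PGAM5 knockdown and 3.30 ± 0.18 in DRP1 knockdown, whereas Mcm3 to Mcm6 was 4.27 ± 0.24 and 4.24 ± 0.41 (SD, n = 3 each). These pairs were chosen after their values were seen. Summed over the 6 genes, the hexamer's level was 134.6, 135.0 and 135.3 FPKM beside 109.3, 110.1 and 109.6, 1.23-fold higher in PGAM5 knockdown. The spread of the sum within a group was under 0.4 FPKM (SD 0.38 and 0.36), and the groups did not overlap. Some single subunits varied more than the sum, Mcm3 with SDs of 0.58 and 1.07 FPKM and Mcm6 with 0.67 and 0.55. Mcm7 varied less, with 0.18 and 0.32. The small SD of the sum is thus not the precision of each subunit. An exact two-sided permutation test of 3 libraries against 3 cannot give a p below 0.1 for any single value here.

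**Figure D3:**
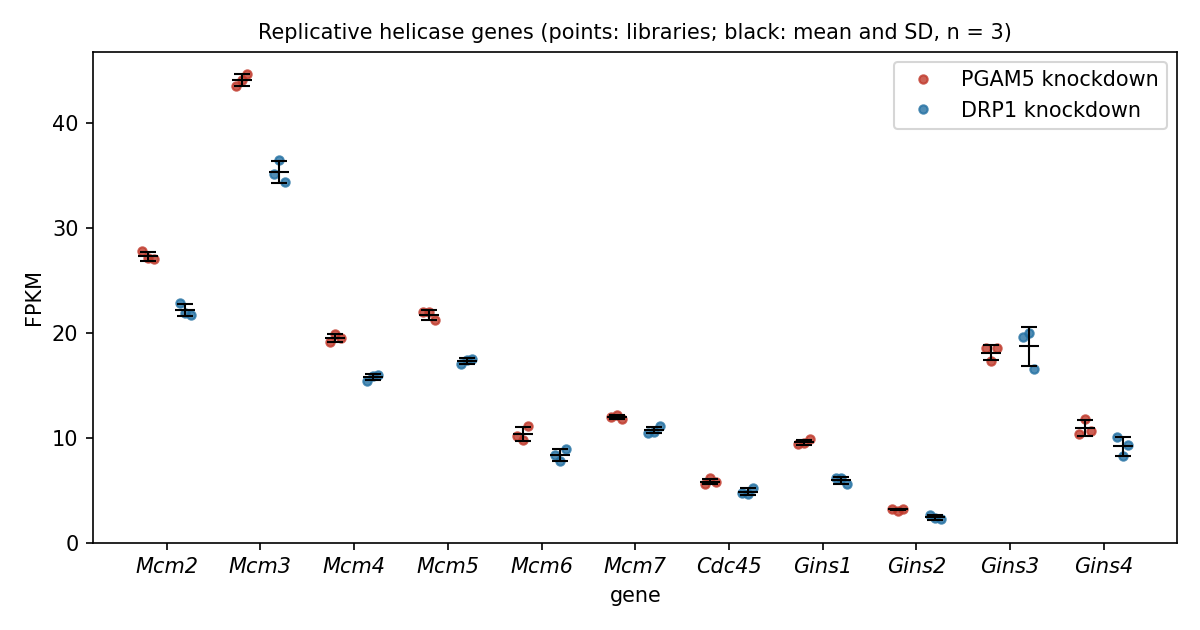
FPKM in each of the 6 libraries for the MCM genes, Cdc45 and the GINS genes, with the mean and SD of each group. The groups are apart for all 6 MCM genes, Cdc45, Gins1, Gins2 and Gins4, and overlap for Gins3.

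Of the helicase's partners and relatives 3 of 7 rose, beside 13.8% of all tested genes. Gins1 (ENSMUSG00000027454; chr2:150905400-150931280, plus strand, mm10), a subunit of the 4-membered GINS complex, had the largest difference of all 51 members. It was at 9.43, 9.45 and 9.83 FPKM in PGAM5 knockdown and 6.14, 6.15 and 5.56 in DRP1 knockdown, 1.61-fold higher (log2 difference 0.61, SE 0.049, limma adjusted p = 0.00024). Gins2 was at 3.21, 3.05 and 3.20 FPKM beside 2.67, 2.32 and 2.24 (1.31-fold, limma adjusted p = 0.019). Gse1, on the opposite strand, covers 67.3% of the exonic bases of Gins2, and since the strand setting is not given, reads of the 2 genes cannot be told apart. Gse1 itself was at 4.48 ± 0.40 and 4.55 ± 0.33 FPKM (SD, n = 3 each).

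Gins3, the most abundant subunit of the complex, did not pass, at 18.5, 17.3 and 18.5 FPKM beside 19.6, 20.0 and 16.5 (log2 difference -0.04, limma adjusted p = 0.72). Its groups overlapped, and DRP1 knockdown library 3 held the lowest value. Gins4 was at 10.9 ± 0.79 and 9.19 ± 0.92 FPKM and did not pass (limma adjusted p = 0.069), although its groups did not overlap. The ratio of Gins1 to Gins3 was 0.509, 0.547 and 0.530 in PGAM5 knockdown and 0.313, 0.308 and 0.336 in DRP1 knockdown, so Gins1 stood higher relative to Gins3 in every PGAM5 knockdown library, a pair chosen after its values were seen. Cdc45, which joins the hexamer together with GINS, rose from 4.73, 4.68 and 5.20 FPKM in DRP1 knockdown to 5.59, 6.13 and 5.75 in PGAM5 knockdown (1.20-fold, limma adjusted p = 0.028). Mcm8, a relative that works in repair, and Mcm10, which helps start the helicase, did not pass.

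Among the 8 genes of origin recognition and licensing 2 rose, Cdt1 and Orc4, beside 13.8% of all tested genes. The role's median log2 difference was 0.10. Cdt1, which brings the hexamer to the origin, was at 40.8, 39.1 and 40.1 FPKM beside 35.0, 35.6 and 37.8 (1.11-fold, log2 difference 0.14, limma adjusted p = 0.031). Orc4, an ATP-binding subunit of the origin recognition complex, was at 8.20, 8.33 and 8.51 FPKM beside 7.53, 7.08 and 6.99 (1.16-fold, limma adjusted p = 0.018). The groups were apart for both genes, though by little for Cdt1. Orc2, the most abundant subunit, did not pass at 22.6, 22.0 and 22.4 FPKM beside 21.6, 20.5 and 21.0 (limma adjusted p = 0.11), although its groups did not overlap, and 29.8% of its exonic bases are shared with Nif3l1. Orc1, Orc3, Orc5, Orc6 and Cdc6 did not pass, with overlapping groups and log2 differences from -0.03 to 0.16. The 6 origin recognition genes summed to 64.1 ± 0.94 FPKM and 59.8 ± 0.84 (SD, n = 3 each), 1.07-fold.

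Pcna, the sliding clamp, was the most abundant of the 52 and rose slightly, from 55.6, 55.1 and 56.4 FPKM in DRP1 knockdown to 60.6, 60.5 and 64.5 in PGAM5 knockdown (1.11-fold, log2 difference 0.15, limma adjusted p = 0.018). A processed copy, Pcna-ps2, matches 51.4% of its longest transcript and was at 1.11 and 0.935 FPKM. Of the clamp loader's 5 subunits 2 rose, beside 13.8% of all tested genes. Rfc2 was at 4.93, 5.09 and 5.74 FPKM beside 4.43, 4.15 and 3.99 (1.25-fold, limma adjusted p = 0.022). Lat2, on the opposite strand, covers 15.1% of the exonic bases of Rfc2 and itself fell in PGAM5 knockdown, from 77.2 ± 2.8 to 64.6 ± 1.9 FPKM. Rfc3 was at 3.04, 3.90 and 3.78 FPKM beside 2.90, 2.60 and 2.68 (1.31-fold, limma adjusted p = 0.044), with PGAM5 knockdown library 1 close to the DRP1 knockdown range. Rfc1, the large subunit, was at 10.8, 11.2 and 11.1 FPKM beside 11.6, 10.9 and 11.2 and did not pass (limma adjusted p = 0.73). Rfc4 (8.67 ± 0.94 and 8.49 ± 0.65 FPKM) and Rfc5 (3.90 ± 0.36 and 3.27 ± 0.028 FPKM) did not pass either, though Rfc5 passed with voom (limma adjusted p = 0.043).

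Of the 9 genes of the polymerases and primase 1 rose, beside 13.8% of all tested genes. That gene was Pola1, the catalytic subunit of polymerase alpha, at 4.22, 3.84 and 3.85 FPKM beside 3.29, 2.96 and 3.22 (1.26-fold, log2 difference 0.26, limma adjusted p = 0.019). Its partner Pola2 had a difference of the other sign that did not pass, 8.75 ± 0.73 and 9.52 ± 0.50 FPKM (log2 difference -0.11, limma adjusted p = 0.26). Pold2, an accessory subunit of polymerase delta and the most abundant of the 9, was at 14.0, 12.6 and 13.9 FPKM beside 11.6, 12.2 and 12.1 (1.13-fold, limma adjusted p = 0.057). Its groups did not overlap, and it passed at a minimum mean of 5 FPKM (limma adjusted p = 0.046) and without PGAM5 knockdown library 2 (limma adjusted p = 0.026). The remaining 6, Prim1, Prim2, Pole, Pole2, Pold1 and Pold3, had log2 differences from -0.09 to 0.18 and did not pass, though Pold1 passed with voom (limma adjusted p = 0.037).

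Of the 3 subunits of RPA, which coats single-stranded DNA, 1 rose, beside 13.8% of all tested genes. Rpa2 was at 8.05, 8.80 and 9.65 FPKM beside 6.47, 6.61 and 6.53 (1.35-fold, log2 difference 0.38, limma adjusted p = 0.0048). The DRP1 knockdown libraries lay close together and all PGAM5 knockdown libraries above them. Rpa3 was at 11.8, 11.9 and 14.7 FPKM beside 13.6, 11.7 and 12.4 (limma adjusted p = 0.89), with overlapping groups and its highest value in PGAM5 knockdown library 3, and Rpa1 was at 11.8 ± 0.30 and 11.3 ± 0.28 FPKM (limma adjusted p = 0.37). Lig1 (ENSMUSG00000056394; chr7:13277283-13311433, plus strand, mm10), the ligase that seals Okazaki fragments, was at 11.4, 10.0 and 11.3 FPKM beside 8.14, 8.31 and 7.92 (1.35-fold, log2 difference 0.39, SE 0.056, limma adjusted p = 0.003). Fen1, the nuclease that trims these fragments, was listed at 0.883, 0.910 and 0.767 FPKM beside 1.03, 0.794 and 0.885, from 34 to 47 reads per library, and was not tested. Genes on the opposite strand, Gm10143 and Tmem258, cover 84.2% of the exonic bases of Fen1, so its level is uncertain.

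Nucleotide supply held the second largest difference. Dut (ENSMUSG00000027203; chr2:125247190-125258608, plus strand, mm10), the dUTPase that keeps uracil out of DNA, was at 16.0, 16.3 and 16.8 FPKM beside 10.6, 12.2 and 11.6 (1.43-fold, log2 difference 0.48, SE 0.054, limma adjusted p = 0.00091). Thymidylate synthase, Tyms, was at 4.36, 5.27 and 5.09 FPKM beside 3.57, 3.75 and 3.88 (1.32-fold, limma adjusted p = 0.016). Both genes act on the supply of thymidine nucleotides, and neither had overlapping groups. Rrm1, the large subunit of ribonucleotide reductase, was at 6.80, 6.67 and 7.40 FPKM beside 5.82, 5.81 and 6.00 (1.18-fold, limma adjusted p = 0.02). Its small subunit Rrm2 was at 17.6, 18.8 and 18.4 FPKM beside 16.6, 16.7 and 17.6 and did not pass (1.08-fold, limma adjusted p = 0.11). Tk1, the salvage kinase of thymidine, was at 1.44 ± 0.16 and 1.39 ± 0.28 FPKM (SD, n = 3 each) and did not pass (limma adjusted p = 0.82).

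**Figure D4:**
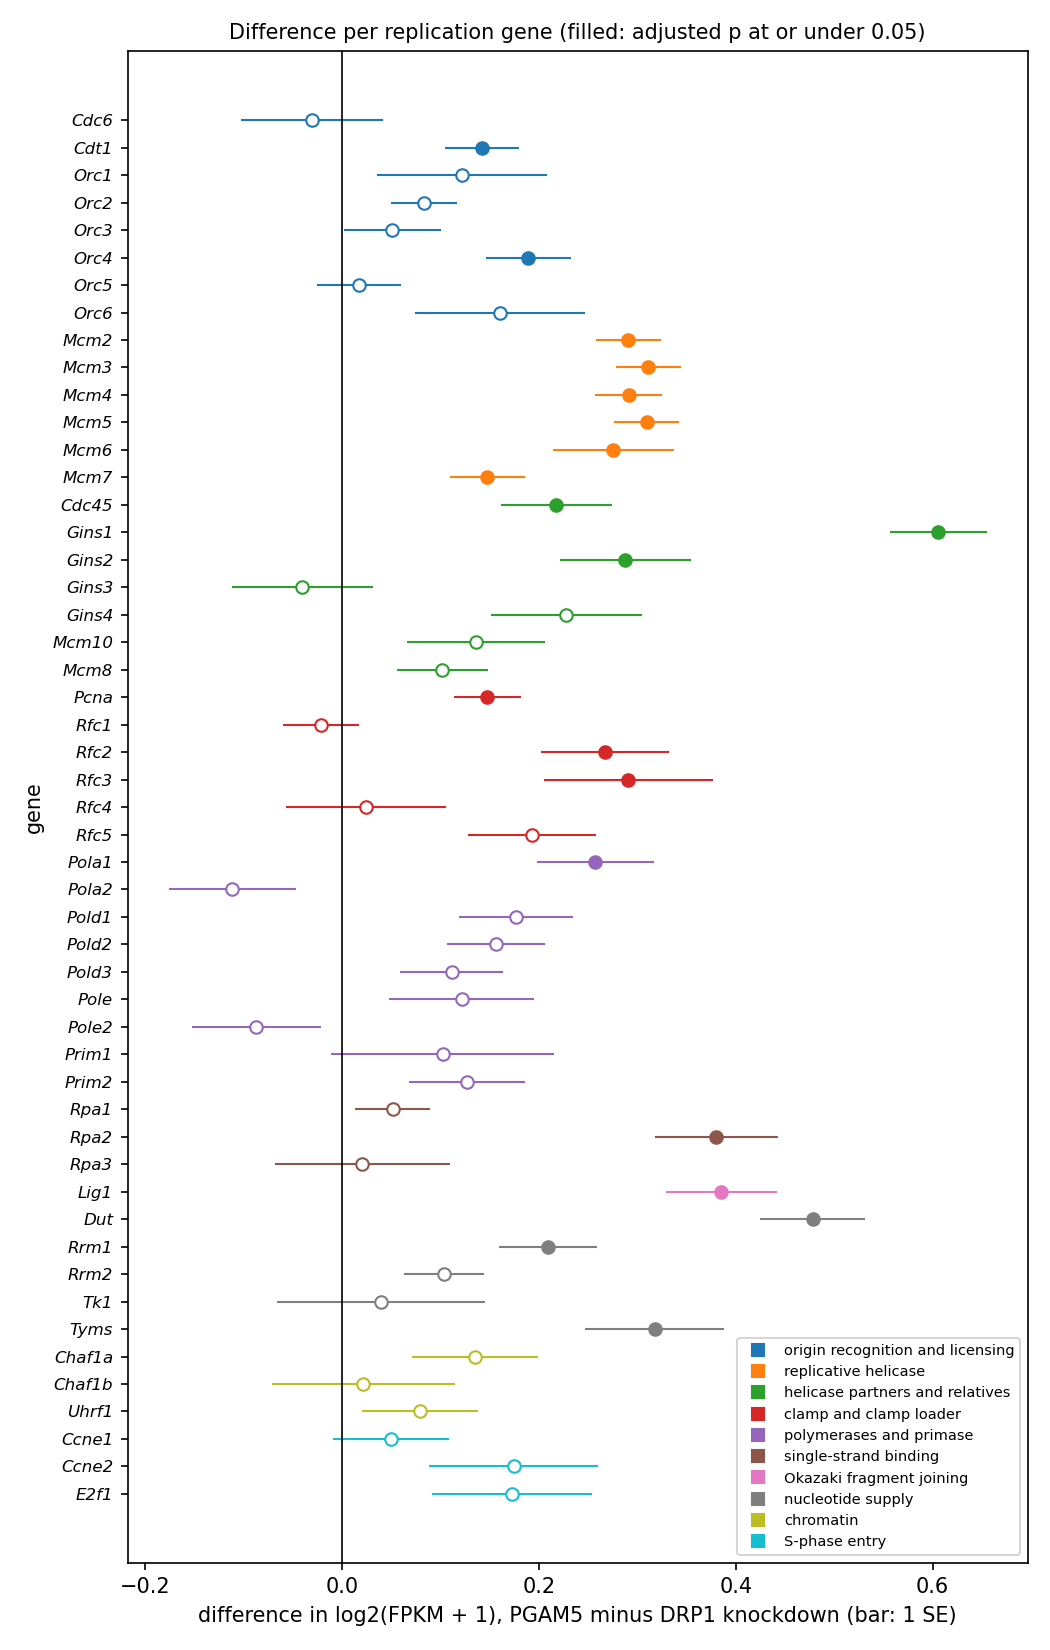
Log2 difference (PGAM5 knockdown minus DRP1 knockdown) with its standard error for each of the 51 tested members, grouped by role, with members that rose marked apart from those that did not pass. Gins1 is highest at 0.61, and 5 members lie below 0.

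None of the 6 genes of the chromatin and S-phase entry roles passed, beside 13.8% of all tested genes that rose and 11.7% that fell. Uhrf1, which guides maintenance DNA methylation at the fork, was at 8.04, 7.21 and 7.67 FPKM beside 6.91, 6.90 and 7.72 (limma adjusted p = 0.37), and Gm5648 matches 44.3% of its longest transcript. Chaf1a was at 2.30 ± 0.12 and 2.00 ± 0.11 FPKM and Chaf1b at 2.60 ± 0.38 and 2.54 ± 0.23. Both encode subunits of a histone chaperone, and Ubxn6, on the opposite strand, covers 52.5% of the exonic bases of Chaf1a. Ccne1, cyclin E1, which drives entry into S phase, was at 4.29, 4.88 and 4.82 FPKM beside 4.50, 4.29 and 4.61 (limma adjusted p = 0.58). The transcription factor E2f1 was at 4.23, 5.05 and 4.45 FPKM beside 3.60, 3.84 and 4.41 (1.16-fold, limma adjusted p = 0.17). Ccne2 was at 1.67 ± 0.23 and 1.36 ± 0.079 FPKM (limma adjusted p = 0.18). The groups overlapped for all 3 genes of S-phase entry.

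The median level of the members that rose was 8.57 FPKM (2.78 to 58.8), with a median SE of 0.052 on the log2 scale, beside 5.17 FPKM (1.41 to 21.7) and an SE of 0.065 for those that did not pass. Of the 31 that did not pass, 26 had a difference above 0 and 5 below it, namely Pola2, Pole2, Gins3, Cdc6 and Rfc1. Of the 20, 8 kept the call in all 15 alternative fits: Mcm2, Mcm3, Mcm4, Mcm5, Gins1, Rpa2, Lig1 and Dut. The other 12 lost it in at least 1, with a highest limma adjusted p between 0.057 and 0.13. Cdt1 lost it in 9 fits and Rfc3 in 8. The 20 differences stayed above 0 in every alternative fit the genes entered (5 were not in the fit at a minimum of 5 FPKM). Leaving out DRP1 knockdown library 2 ended the calls of all 12, Mcm6, Mcm7, Orc4, Cdt1, Cdc45, Gins2, Pcna, Rfc2, Rfc3, Pola1, Rrm1 and Tyms. Without DRP1 knockdown library 3, 7 of the 12 lost it, Orc4, Gins2, Pcna, Rfc2, Rfc3, Pola1 and Rrm1. Without DRP1 knockdown library 1, 8 of the 12 lost it, Mcm6, Mcm7, Cdt1, Cdc45, Pcna, Rfc3, Rrm1 and Tyms.

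**Figure D5:**
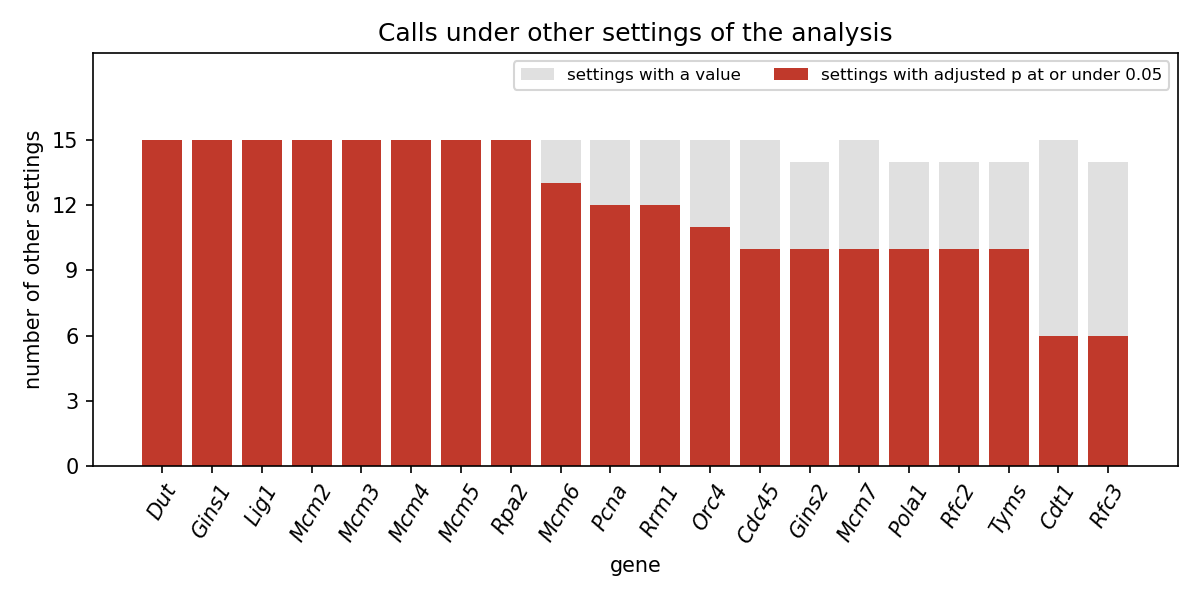
For each of the 20 members that rose, the number of alternative fits with an adjusted p of 0.05 or less (coloured bar) within the number of fits the gene entered (pale bar). The 8 with full bars keep the call in all 15 fits, and Cdt1 and Rfc3 lose it in the most, 9 and 8.

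Genes that work beside the 52 were taken from a second list of 79 replication, nucleotide and S-phase control genes. Of these 71 were tested, and 22 rose (31.0%, beside 13.8% of all tested genes), 5 fell (beside 11.7% of all tested genes) and 44 did not pass. The median log2 difference was 0.10, beside 0.01 over all tested genes. Genes that hold back or drive entry into S phase stood side by side among the highest. The kinase inhibitor Cdkn1b (p27) was at 12.9 ± 0.62 and 9.19 ± 0.58 FPKM (1.40-fold, limma adjusted p = 0.0015). Cdk6, a kinase partner of the D cyclins, was at 14.2 ± 0.80 and 10.1 ± 0.080 FPKM (1.40-fold, limma adjusted p = 0.00063). Cyclin D2, Ccnd2, was at 3.11 ± 0.13 and 2.03 ± 0.18 FPKM (1.53-fold, limma adjusted p = 0.0036).

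E2f6, a repressor of the E2F family, was the gene of this second list with the largest fall, at 5.12, 5.32 and 5.02 FPKM in PGAM5 knockdown beside 7.73, 7.95 and 8.12 (log2 difference -0.54, limma adjusted p = 0.00023). The groups were far apart. Mcm9, the repair partner of Mcm8, was at 9.35 ± 0.77 and 11.2 ± 0.032 FPKM (log2 difference -0.24, limma adjusted p = 0.022). Dna2, a nuclease and helicase, was at 4.19 ± 0.49 and 5.09 ± 0.060 FPKM (log2 difference -0.24, limma adjusted p = 0.049), and the folate enzyme Mthfd1 was at 16.9 ± 1.0 and 20.1 ± 1.4 FPKM (log2 difference -0.23, limma adjusted p = 0.03). The fifth gene that fell was Wdhd1, chosen for mention after its values were seen, at 2.00 ± 0.063 and 2.49 ± 0.083 FPKM (limma adjusted p = 0.031). E2f6, Cdkn1b, Cdk6 and Ccnd2 kept their calls in every alternative fit they entered. Mcm9, Dna2, Mthfd1 and Wdhd1 did not. The count of 5 became smaller with each library left out, to 3, 2 and 3 without PGAM5 knockdown library 1, 2 or 3. Without DRP1 knockdown library 1, 2 or 3 it was 1, 2 and 1. The share of all tested genes that fell in these fits was not counted, so the smaller counts cannot be called particular to this list. The share of all tested genes that rose also became smaller, from 13.8% to between 9.13% and 13.7%.

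The last list, of 45 mitosis genes, held 10 that rose (22.2%, beside 13.8% of all tested genes), 1 that fell (beside 11.7%) and 34 that did not pass. The median log2 difference was 0.04. Cdk1, the mitotic kinase, was at 8.69 ± 0.42 FPKM beside 6.48 ± 0.19 (1.34-fold, limma adjusted p = 0.0017). Ndc80 and Spc24, both of the kinetochore, had log2 differences of 0.34 each (limma adjusted p = 0.0072 and 0.0037), and the spindle checkpoint kinase Bub1b one of 0.30 (limma adjusted p = 0.00074). The phosphatase Cdc25c fell, at 3.39, 2.87 and 2.45 FPKM beside 4.22, 4.49 and 4.96 (log2 difference -0.51, limma adjusted p = 0.0085). Mki67, the usual proliferation marker and named after its values were seen, was at 5.60 ± 0.34 and 5.81 ± 0.21 FPKM and did not pass (limma adjusted p = 0.59). With PGAM5 knockdown library 2 left out 6 of the 45 mitosis genes rose, beside 10.6% of all tested genes. With DRP1 knockdown library 1 left out 6 rose as well, beside 9.39%. Without PGAM5 knockdown library 1, 2 fell, and the share of all tested genes that fell in that fit was not counted. The 5 mitosis genes named as passing kept their calls in every alternative fit they entered. Whether the 3 lists differ from each other was not tested.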

How the data were processed

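RNA sequencing measured 3 PGAM5 knockdown and 3 DRP1 knockdown libraries. The authors deposited FPKM values for 54532 gene identifiers in each library. HISAT2 2.0.5 and featureCounts 1.5.0-p3 had been used on build mm10, per the submitters' processing notes. For the annotation release, FPKM formula and strand setting, nothing is given in the sources used here; the labels' protocols name both a directional and a non-directional kit. Because such values are scaled to the library total, a few abundant genes can move all others.

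Symbols came from GENCODE M21, with 54495 identifiers matched. Library totals were recovered from the FPKM steps, since 95.6% to 96.1% of values per library came out within 0.02 of a whole read. The recovered reads of all genes summed to more than this total in every library, 17030467 beside 16111272 in DRP1 knockdown library 1. The cause was not tested. Genes with a mean of at least 1 FPKM (10634) entered limma 3.58.1 (R 4.3.3) as log2(FPKM + 1), with an intensity trend and Benjamini-Hochberg adjustment over all of them. A gene rose or fell at an adjusted p of 0.05 or less. The limma step was tested on reads simulated with seeded changes. The spread of those reads was set and not taken from these libraries, so the test does not measure the error of the calls here. Since no label says that the libraries of a group are separate cultures, the spread behind each p-value may be technical only.

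The members, roles and lists were chosen with earlier results of these data known. Values are given in every library for each member that passed, for the most abundant member of each role that did not pass, and for Mcm2, Pcna, E2f1 and Ccne1. Of the other 2 lists, up to 4 genes in each direction with the largest difference among those passing are named, except for a result not reported here. Near-identical genes were sought with blastn 2.17.0 (97% identity over at least 100 bases). Alternatives were pseudocounts of 0.1 and 5, no filter, a minimum of 5 FPKM, quantile normalization, centring on the library median, no trend, limma's voom on recovered reads, a replicate block and each library left out.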

Additional observations from a re-analysis of the deposited data

How the results depend on the processing

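Of the 15 alternatives, the count of members that rose (20) moved by more than 1.5 times with no filter on low values (13) and with a library left out (8 to 18, 8 without DRP1 knockdown library 2). The members' median log2 difference (0.15) was 0.18 with a pseudocount of 0.1, 0.10 with one of 5 and 0.17 with voom. In the second list the median (0.10) was 0.063 with a pseudocount of 5, and the number that fell (5) was 1 with no filter, 3 at a minimum of 5 FPKM, 3 with the replicate block and 1 to 3 with a library left out. Of the mitosis genes that fell (1), the count was 0 at a minimum of 5 FPKM, 2 with centring on the library median and 1 to 2 with a library left out. Those that rose (10) were 6 to 10 with a library left out, beside 9.13% to 13.7% of all tested genes. The share of all tested genes that fell was not counted in the alternatives. The mitosis median (0.04) was 0.054 at a minimum of 5 FPKM, 0.027 with centring and 0.039 to 0.072 with a library left out. Cdc25c (mean 3.73 FPKM), Dna2 (4.64) and Wdhd1 (2.24) were under 5 FPKM, so they were not in the fit at that minimum. The sign turned for 7 of the 51 members, none of which had passed: Gins3 ranged from -0.12 to 0.01 (0.0062 without DRP1 knockdown library 2), Rpa3 from -0.075 to 0.074 (-0.075 without PGAM5 knockdown library 3, -0.02 without DRP1 knockdown library 2), and with a library left out Orc5 ranged from -0.012 to 0.045, Cdc6 from -0.055 to 0.0062, Rfc4 from -0.043 to 0.098, Tk1 from -0.048 to 0.12 and Chaf1b from -0.046 to 0.10. The cause was not tested. Libraries with the same number did not deviate together (r of 0.021, 0.031 and -0.00034), so the numbers were not taken as pairs, and with the replicate block 14 members rose and 0 fell. With voom 1693 genes in all were higher. At this number of libraries the smallest difference of a member that rose was 0.14 (Cdt1) and the largest that did not pass was 0.23 (Gins4), on the log2 scale.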
